A study of Mus musculus with 24 samples.

Results

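Among the mice sampled at 26 weeks of age, the arrays with replicate numbers 1 to 4 and those with replicate numbers 5 and 6 gave different expression profiles in both strains. The arrays were divided by the replicate number in the sample titles, which left 8 arrays numbered 1 to 4 (4 per strain) and 4 arrays numbered 5 and 6 (2 per strain), 12 of the 24 arrays of the study. This division was chosen by the measured values themselves, since earlier results of these data showed that these arrays differ, so every difference between the number sets at 26 weeks is given as a description, with its standard error (SE) and no test. The replicate numbers carry no hybridisation date, operator or lot, and what sets the arrays apart was not tested.

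The mice were males of BPH/2J, inbred for hypertension, and of its normotensive counterpart BPN/3J. Whole hypothalamus was taken from 6-week and 26-week mice of both strains, when blood pressure is highest of the day, with 6 arrays per group. Per the labels, RNA was not pooled, so each array held 1 mouse. Values are RMA values from Affymetrix Mouse Gene 1.0 ST arrays on the log2 scale, and each is relative to the rest of its array. All 12 arrays had the neuropeptides of the labelled tissue: Hcrt, which encodes orexin, ran from 7.29 to 10.76 and Avp, which encodes vasopressin, from 6.64 to 9.28, against a median of 4.77 for probe sets with no gene name.

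The hypothalamus holds neurons that make peptide hormones, glia such as astrocytes and tanycytes, and the ciliated ependyma that lines the ventricle. It borders on the choroid plexus, an epithelium that makes cerebrospinal fluid, and on other forebrain regions. In such bulk tissue, fewer cells of a type and less RNA per cell cannot be told apart. Genes of the ribosome, the proteasome and the respiratory chain are used by every cell. MicroRNAs are cut from hairpin transcripts into short strands that guide silencing proteins to messenger RNAs through the seed, bases 2 to 8 of the mature strand.

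A gene was counted when the mean of arrays 5 and 6 differed from the mean of arrays 1 to 4 by at least 0.5 in the same direction in both strains, and the values of the number sets did not overlap in either strain. This rule counted 541 of 19937 genes (2.71%), of which 141 (0.707%) were higher and 400 (2.01%) lower on arrays 5 and 6. These shares of all genes are the reference for the list counts below. Regardless of size and overlap, 7297 of the 19937 genes were below 0 in both strains and 7421 above. The rule counted 0 genes when it was applied to the same numbers among the 6-week arrays. Because the values are relative, the split between higher and lower depended on how the arrays were scaled. It was 223 higher and 283 lower with arrays centred on the median of named genes, 179 and 297 with quantile normalization over named genes, and 19 and 1063 with arrays centred on the median of unnamed probe sets. With the last scaling the median difference of all genes was -0.17, and -0.30 in BPN/3J alone, against 0.01 and -0.02 as deposited. At the edge of the rule, Hoxb9 (0.56 in BPH/2J, 0.50 in BPN/3J) was counted as higher and Zbtb42 (0.78 and 0.498) was not, and Narf (-0.54 and -0.501) was counted as lower and Rpp30 (-0.68 and -0.4995) was not.

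**Figure D1:**
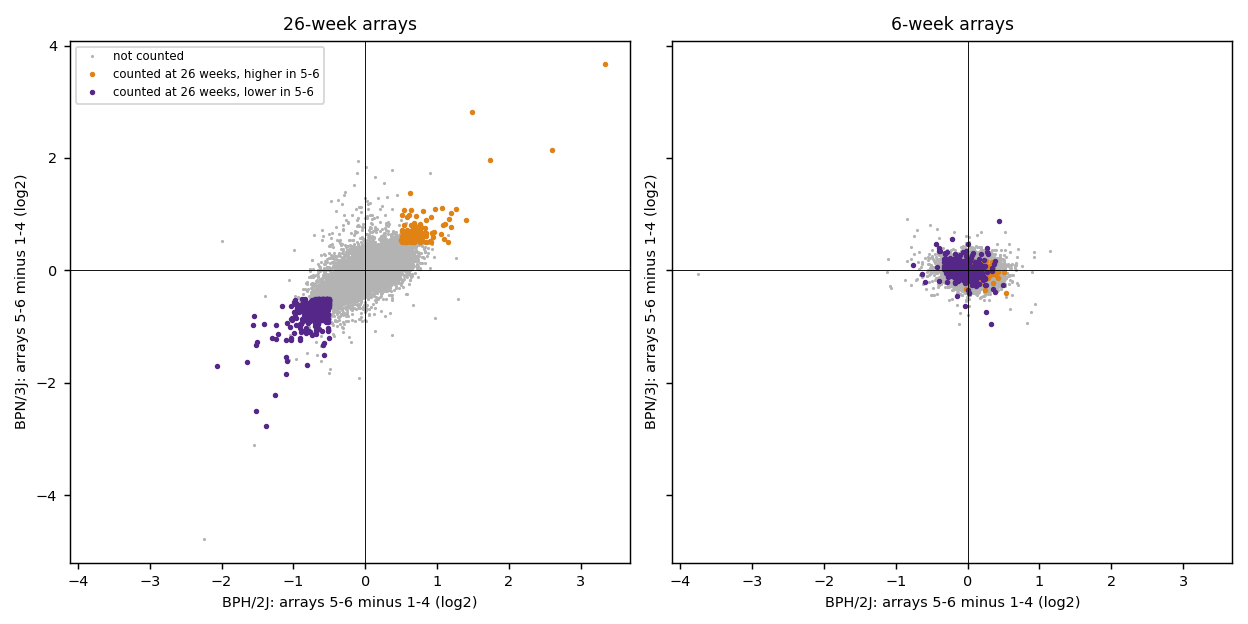
Each point is 1 of 19937 genes, with the log2 difference of arrays 5 and 6 minus arrays 1 to 4 in BPH/2J on the horizontal axis and in BPN/3J on the vertical axis, at 26 weeks on the left and at 6 weeks on the right. The 141 genes counted as higher and the 400 counted as lower at 26 weeks are coloured in both panels, and at 6 weeks none meets the rule.

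MicroRNA genes were among the classes counted only as higher, and the sequences of the 3 with the largest smaller-of-both-strains difference are shown here. No arm of these 3 shares a seed with another. Of 300 measured microRNA genes 15 were counted as higher on arrays 5 and 6 (5%, beside 0.707% of all genes) and 0 as lower. The hairpins below are written 5′ to 3′ with the mature arms in capitals, and the mature strands with the seed in capitals, from RefSeq on build GRCm38.p6. Mir199a-1 lies at chr9:21496495-21496564, minus strand, Mir204 at chr19:22750605-22750672, plus strand, and Mir365-1 at chr16:13453840-13453926, plus strand.
Mir199a-1 hairpin: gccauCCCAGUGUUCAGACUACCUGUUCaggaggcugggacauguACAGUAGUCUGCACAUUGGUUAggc
mmu-miR-199a-5p: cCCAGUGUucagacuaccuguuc
mmu-miR-199a-3p: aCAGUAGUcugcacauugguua
Mir204 hairpin: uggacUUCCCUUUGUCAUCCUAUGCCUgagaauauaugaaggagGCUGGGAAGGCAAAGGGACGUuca
mmu-miR-204-5p: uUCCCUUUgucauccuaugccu
mmu-miR-204-3p: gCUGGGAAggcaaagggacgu
Mir365-1 hairpin: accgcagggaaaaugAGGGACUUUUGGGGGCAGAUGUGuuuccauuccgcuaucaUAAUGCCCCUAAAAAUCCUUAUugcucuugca
mmu-miR-365-1-5p: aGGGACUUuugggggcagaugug
mmu-miR-365-3p: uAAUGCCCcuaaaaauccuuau

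A probe set of a microRNA gene need not read the mature strand, so these values belong to the gene and not to an arm. Mir199a-1 lay at 4.71 to 5.15 (median 4.93) on the 8 arrays numbered 1 to 4, and at 6.03 and 6.37 in BPH/2J and 6.31 and 5.73 in BPN/3J on arrays 5 and 6. Every array numbered 5 or 6 stood above all 8 others, and the difference was 1.18 ± 0.13 (SE), a 2.26-fold higher level. The 6-week arrays spanned 5.50 to 6.18, also above all 26-week arrays numbered 1 to 4. Mir204, whose gene is an intronic one known from choroid plexus and retinal pigment epithelium, lay at 2.58 to 3.00 (median 2.87) on arrays 1 to 4 and at 3.78 and 3.62 in BPH/2J and 3.85 and 3.92 in BPN/3J on arrays 5 and 6 (difference 0.93 ± 0.08). All of its values were below the median of unnamed probe sets, so this difference lies among dim values. Mir365-1 lay at 4.62 to 5.01 (median 4.89) on arrays 1 to 4 and at 5.72 and 5.59 in BPH/2J and 5.45 and 5.77 in BPN/3J on arrays 5 and 6 (difference 0.76 ± 0.08).

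The other 12 counted microRNA genes were Mir688, Mir320, Mir128-2, Mir298, Mir680-3, Mir139, Mir540, Mir708, Mir26a-1, Mir299a, Mir23a and Mir423, with differences of at least 0.50 in each strain. Across all 300, the median difference was 0.18 (0.12 in BPH/2J and 0.21 in BPN/3J) beside 0.01 for all genes, and 172 were above 0 in both strains against 33 below. The class median was 0.05 between the same numbers at 6 weeks. With arrays centred on unnamed probe sets it was -0.00 beside -0.17 for all genes, so the direction of the class depended on the scaling. Without array 6 of BPN/3J the class median was 0.10. Array 6 of BPN/3J also had the highest class mean of its group, 4.89 beside 4.55 for the next. Of the 300, 258 had a hairpin entry. All genes with such an entry, in the class or not, were sorted into 4 bins by the G and C content of the hairpin. The median difference was 0.04 in the bin lowest in G and C, 0.13 and 0.18 in the middle bins and 0.35 in the highest. The median level went over the same bins from 2.85 to 6.05, so base composition and level moved together here (Pearson r of difference and G plus C 0.343 over 258 genes, which share the same 12 arrays). Of the counted 15, 12 had a mean above the median of unnamed probe sets, as did 130 of all 300.

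Protein-coding genes gave the widest separations of the higher group. The deubiquitinase gene Usp17ld lay at 5.94 to 8.17 (median 6.82) on arrays 1 to 4, and at 10.55 and 10.60 in BPH/2J and 10.86 and 9.94 in BPN/3J on arrays 5 and 6. The difference of 3.50 ± 0.30 was 11.3-fold, and the 6-week arrays, at 9.89 to 10.59, sat with arrays 5 and 6. Usp17ld belongs to a family of near-identical copies, so its probe set may read several of them. Tns1, which encodes tensin 1 of focal adhesions, lay at 7.09 to 7.68 (median 7.35) on arrays 1 to 4 and at 10.03 and 9.88 in BPH/2J and 9.61 and 9.41 in BPN/3J on arrays 5 and 6, a difference of 2.37 ± 0.12. The 6-week values of Tns1 (8.77 to 9.40) fell between the number sets.

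Mt2, which encodes a metal-binding metallothionein induced by glucocorticoids, lay at 11.14, 11.23, 11.15 and 11.00 on arrays 1 to 4 of BPH/2J and 10.62, 10.64, 10.68 and 10.74 on those of BPN/3J. Arrays 5 and 6 gave 11.93 and 11.93 in BPH/2J and 11.88 and 11.57 in BPN/3J, above every array of the other set in either strain. The difference was 0.93 ± 0.08. Mt2 was the only gene counted as higher of the 21 measured in the glucocorticoid and stress list, whose median was -0.01. Hsd11b1 (-0.51) was the only gene of that list counted as lower. Nlrc5, an activator of MHC class I genes, lay at 8.13 to 8.83 (median 8.41) and 9.35 to 9.70 (difference 1.11 ± 0.11). The 21 measured genes of its interferon and MHC class I list lay both ways (9 below 0 in both strains and 6 above, with medians of 0.02 for BPH/2J and -0.17 for BPN/3J), and the 2 counted as lower were Ifit1 (-0.76 ± 0.12) and Ifitm3 (-0.61 ± 0.16).

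The non-coding and poorly known members of the higher group included AY036118 (difference 1.85 ± 0.10) and the 5S ribosomal RNA gene n-R5s136. The latter lay at 7.95 to 8.60 (median 8.31) on arrays 1 to 4 and at 9.99 and 9.54 in BPH/2J and 9.66 and 12.57 in BPN/3J on arrays 5 and 6, and the 5S genes are near-identical copies. Its difference was 1.48 in BPH/2J and 2.82 in BPN/3J, where array 6 alone stood at 12.57. The remaining genes named by size were Krtap5-1, a hair keratin-associated protein gene (1.09 ± 0.12), the membrane protein gene Tmem179 (1.03 ± 0.12), the unconventional myosin gene Myo18b (1.04 ± 0.11), the aldehyde dehydrogenase gene Aldh3b3 (1.15 ± 0.13) and Dipk1b (0.87 ± 0.08). For each of them the 8 arrays numbered 1 to 4 lay below all 4 arrays numbered 5 and 6.

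**Figure D2:**
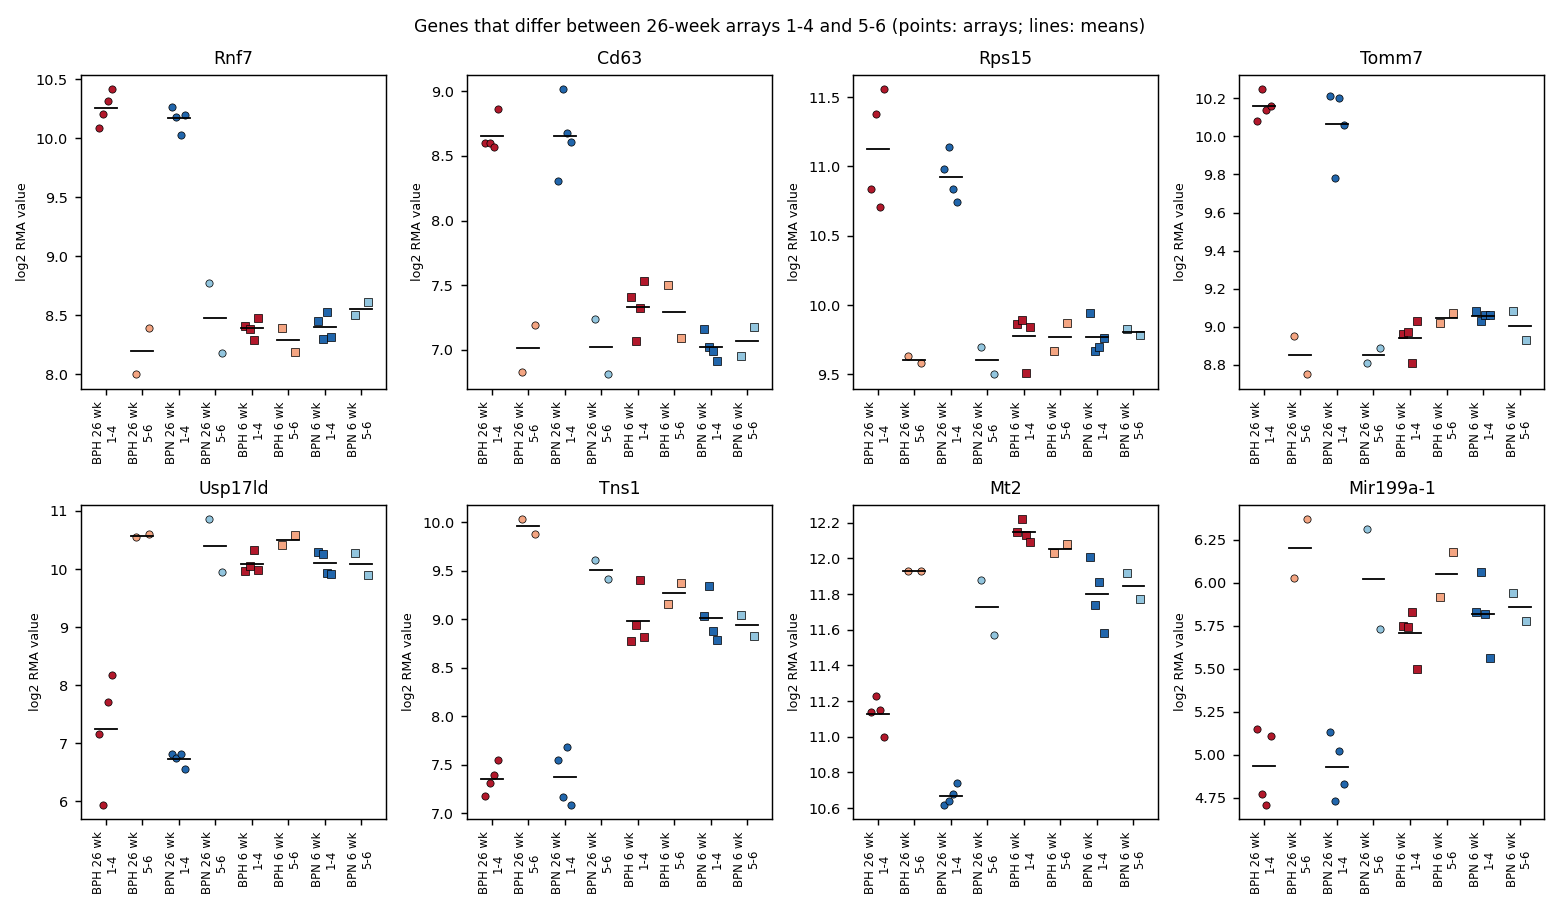
Log2 RMA values of 8 genes on each of the 24 arrays (vertical axes, 1 panel per gene), by strain, age and number set, with points for arrays and lines for means. Rnf7, Cd63, Rps15 and Tomm7 are high only on 26-week arrays 1 to 4 and Usp17ld, Tns1, Mt2 and Mir199a-1 are low only there. Arrays 5 and 6 lie near the 6-week arrays except for Tns1, whose 6-week values fall between the number sets.

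The lower group was led by Rnf7, which encodes a RING subunit of cullin ubiquitin ligases. Rnf7 lay at 10.03 to 10.42 (median 10.20) on arrays 1 to 4 and at 8.0 and 8.39 in BPH/2J and 8.77 and 8.18 in BPN/3J on arrays 5 and 6. The gap between the lowest array of the first set and the highest of the second exceeded the whole range within either set, and the difference was -1.88 ± 0.12, or 3.68-fold lower. The 12 arrays of 6-week mice spanned 8.19 to 8.61. Cd63, a tetraspanin of late endosomes, lay at 8.31 to 9.02 (median 8.60) on arrays 1 to 4 and at 6.83 and 7.19 in BPH/2J and 7.24 and 6.81 in BPN/3J on arrays 5 and 6 (difference -1.64 ± 0.12). Tomm7, a subunit of the mitochondrial import pore, lay at 9.78 to 10.25 (median 10.15) and at 8.95 and 8.75 in BPH/2J and 8.81 and 8.89 in BPN/3J (difference -1.26 ± 0.08). The 6-week ranges, 6.91 to 7.53 for Cd63 and 8.81 to 9.08 for Tomm7, overlapped those of arrays 5 and 6. The guanine deaminase gene Gda (-1.23 ± 0.21) and Tbc1d8b of the Rab-regulating TBC family (-1.17 ± 0.15) were also among the 12 genes named by size.

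Genes of protein synthesis lay mostly lower on arrays 5 and 6. Of 71 cytosolic ribosomal protein genes 13 were counted as lower (18.3%, beside 2.01% of all genes) and 0 as higher. In both strains 47 were below 0 and 15 above, beside 7297 and 7421 of all 19937 genes. The median was -0.20. Rps15, of the small ribosomal subunit, lay at 10.84, 11.38, 10.71 and 11.56 on arrays 1 to 4 of BPH/2J and 10.98, 11.14, 10.84 and 10.74 on those of BPN/3J. Arrays 5 and 6 gave 9.63 and 9.58 in BPH/2J and 9.70 and 9.5 in BPN/3J, so no array came near the other set, and the difference was -1.42 ± 0.14 (2.68-fold). Rps21 (-0.94 ± 0.07) and Rps12 (-0.79 ± 0.06) were also lower, while Rpl27 had the most positive value of the list, 0.54. The mean level of the list was 9.54 to 9.71 on arrays 1 to 4, 9.34 to 9.42 on arrays 5 and 6 and 9.28 to 9.47 on the 6-week arrays. The list mean of every array numbered 1 to 4 was thus above that of every other array.

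Other groups of genes had medians of similar or smaller size, and their counts stand beside 2.01% lower and 0.707% higher for all genes. The median was -0.17 for 61 initiation and elongation factor genes, of which 3 were counted as lower (Eif3e, Eif2s2 and Eif3k). It was -0.05 for them with quantile normalization over named genes. The median was -0.18 for 31 proteasome genes, with Psmd4 (-0.72 ± 0.08) and Psma2 (-0.58 ± 0.08) counted. Among 32 genes of spliceosomal particles 25 were below 0 in both strains (median -0.20), and only Sf3a3 was counted. Of 347 Zfp zinc finger genes 13 were counted as lower (3.75%), among them Zfp418 (-0.75 ± 0.06), and 1 as higher (0.288%), Zfp513 (0.75 ± 0.09). Of 77 mitochondrial ribosomal protein genes 4 were counted as lower (5.19%), led by Mrpl42 (-1.18 ± 0.21).

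The 81 measured subunits of oxidative phosphorylation went in both directions, with a median of -0.06. Ndufs7 of complex I lay at 9.79 to 10.07 (median 9.97) on arrays 1 to 4 and at 10.31 to 10.63 on arrays 5 and 6, a difference of 0.57 ± 0.07. Uqcrc1 of complex III (0.56 ± 0.07) and Atp5d of the ATP synthase (0.56 ± 0.07) were also counted as higher. Ndufb10 of complex I lay at 8.27 to 8.53 (median 8.35) and at 7.15 to 7.46, a difference of -1.05 ± 0.07. Uqcrh of complex III (-0.90 ± 0.08) and Atp5k of the ATP synthase (-0.66 ± 0.10) were among the 7 counted as lower. The list thus had 3.70% counted as higher and 8.64% as lower, beside 0.707% and 2.01% of all genes. Complexes I and III and the ATP synthase thus each had a member counted in either direction. Histone genes were split in the same way, with H4c4 (0.97 ± 0.10) and H4c3 (0.82 ± 0.11) counted as higher and H2bc4 (-1.03 ± 0.10) as lower.

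Markers of choroid plexus and ependyma gave the most negative median of the 55 lists and classes with at least 5 measured genes, -0.68 (-0.49 in BPH/2J and -0.89 in BPN/3J). Of 17 measured, 5 were counted as lower and 15 were below 0 in both strains. Sostdc1, a secreted antagonist of bone morphogenetic proteins, lay at 6.46, 6.34, 9.45 and 8.45 on arrays 1 to 4 of BPH/2J and at 6.61, 10.02, 7.84 and 9.53 on those of BPN/3J. Arrays 5 and 6 gave 6.19 and 6.13 in BPH/2J and 6.05 and 5.95 in BPN/3J, near the 6-week range of 5.54 to 6.40. The large spread within arrays 1 to 4 gave a difference of -2.01 ± 0.64. Kl, which encodes klotho, lay at 5.41 to 8.07 (median 6.58) and 5.09 to 5.26 (difference -1.48 ± 0.46), and the chloride channel family gene Clic6 at 7.01 to 8.51 (median 7.57) and 6.11 to 6.73 (difference -1.32 ± 0.27).

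Transthyretin, the main secreted protein of the choroid plexus, was not counted because its values overlapped. Ttr lay at 8.20, 8.17, 13.24 and 12.78 on arrays 1 to 4 of BPH/2J and 9.23, 13.57, 12.47 and 13.28 on those of BPN/3J, against 9.42 and 7.29 in BPH/2J and 6.11 and 8.61 in BPN/3J on arrays 5 and 6. The mean level of the 17 markers was 6.03 to 7.84 on arrays 1 to 4, 5.78 to 6.11 on arrays 5 and 6 and 5.86 to 6.66 on the 6-week arrays. Summed on the linear scale, the list came to 1618 to 16237 on arrays 1 to 4, 1112 to 1929 on arrays 5 and 6 and 1269 to 5665 at 6 weeks, so the arrays numbered 1 to 4 also differed widely among themselves. Foxj1, which drives the formation of motile cilia, was at 0.24, the most positive value of the list. Genes of motile cilia outside the list, chosen after their values were seen, were lower, with Enkur at -1.01 ± 0.18, Cfap161 at -0.97 ± 0.15, Ak7 at -0.87 ± 0.16 and Rsph4a at -0.83 ± 0.17. The part of these cells in the other differences was not tested.

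Lists for other brain regions and for supporting cells had medians closer to 0. The median was -0.34 for 15 markers of cortex and hippocampus, with Tbr1, Nrgn and Mef2c counted as lower, and -0.32 for 14 striatal markers, with Rxrg counted. Without array 5 of BPN/3J the cortex median was -0.16, and without array 3 of BPH/2J the striatal median was -0.19. Of 17 thalamic markers 0 were counted, 6 were below 0 in both strains and 4 above, and the median was -0.05 (0.09 in BPH/2J and -0.21 in BPN/3J), or 0.14 without array 5 and -0.25 without array 6 of BPN/3J. Mean levels of the cortex list were 7.32 to 8.11 on arrays 1 to 4, 7.19 to 7.30 on arrays 5 and 6 and 7.16 to 7.41 on the 6-week arrays. Of 16 markers of pericytes, smooth muscle and meninges 11 were below 0 in both strains (median -0.19, and -0.11 without array 3 of BPH/2J), and the matrix genes Dcn (-1.13 ± 0.23) and Lum (-0.93 ± 0.25) were counted. The medians of the lists for neurons (-0.05), astrocytes (0.02) and myelin (-0.01) lay within 0.1 of 0, each below -0.1 with arrays centred on unnamed probe sets, with Snap25 of the synapse at -0.12 and Gfap of astrocytes at -0.14. In those 3 lists the myelin gene Ermn (-0.84 ± 0.14) was the only gene counted. The myelin median was -0.19 in BPH/2J and 0.02 in BPN/3J, and it was -0.17 without array 5 and 0.09 without array 6 of BPN/3J.

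**Figure D3:**
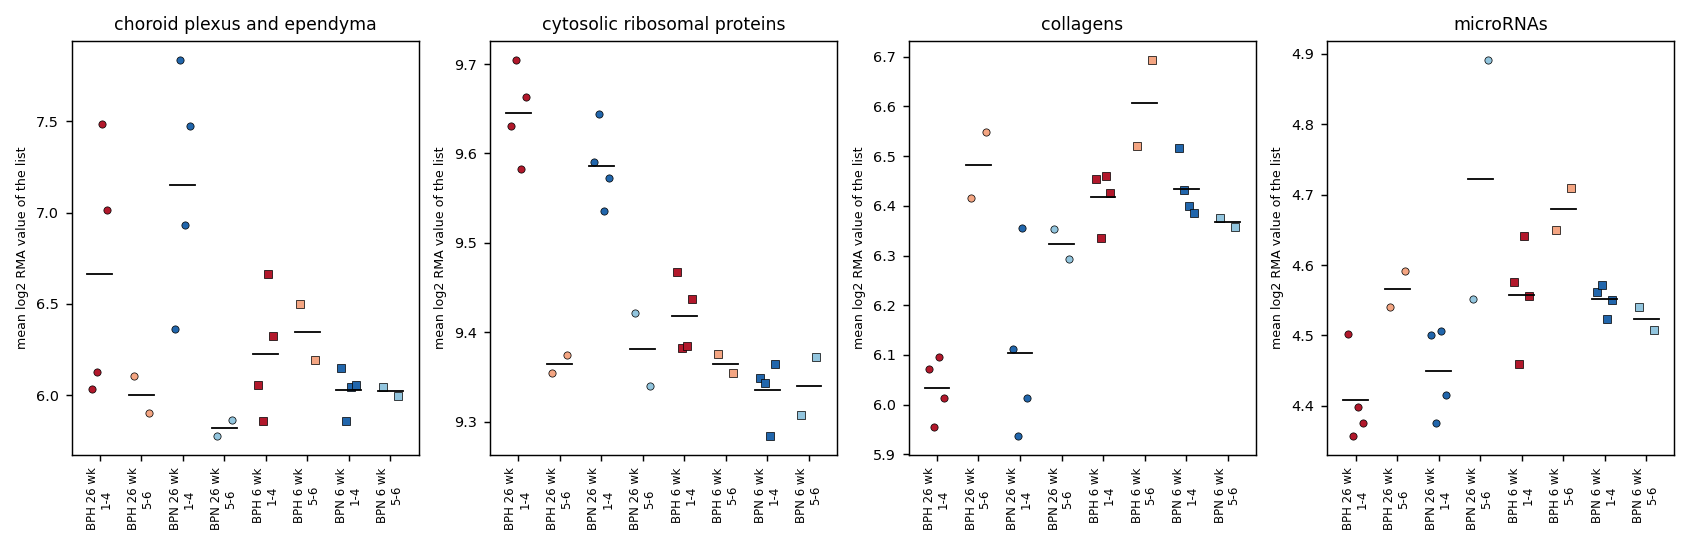
Mean log2 RMA value (vertical axes) of 4 lists on each of the 24 arrays, by strain, age and number set, with points for arrays and lines for means. The choroid plexus and ependyma markers run from 6.03 to 7.84 within 26-week arrays 1 to 4 and from 5.78 to 6.11 on arrays 5 and 6, while the ribosomal list separates the sets without overlap (9.54 to 9.71 against 9.34 to 9.42).

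Neuropeptide genes and their receptors lay in both directions, with 4 of 41 neuropeptide genes and 4 of 44 receptor genes counted as lower, beside 2.01% of all genes. The neuropeptide list had a median of -0.06 (0.05 in BPH/2J and -0.18 in BPN/3J), with 16 genes below 0 in both strains and 12 above. The receptor list had a median of -0.15, or -0.07 without array 6 of BPN/3J, with 23 genes below and 15 above. Pomc, the precursor of melanocortins and ACTH made in the arcuate nucleus and the pituitary, lay at 6.78 to 8.27 (median 7.69) on arrays 1 to 4 and at 5.94 and 6.10 in BPH/2J and 6.04 and 6.71 in BPN/3J on arrays 5 and 6. Array 6 of BPN/3J lay just below the lowest array numbered 1 to 4 of that strain, at 6.78, and the difference was -1.39 ± 0.22. At 6 weeks Pomc lay at 6.43 to 8.46 in BPH/2J, with a median of 7.90, near arrays 1 to 4. In BPN/3J it lay at 5.95 to 6.67, with a median of 6.03, near arrays 5 and 6. These ranges overlapped, and the strain difference at 6 weeks was not tested. The anterior and intermediate pituitary list, of which Pomc was the only member counted, had a median of -0.08 over 12 genes. Sst, which encodes somatostatin, had a difference of -0.82 ± 0.13, and Tac2, which encodes neurokinin B, of -0.75 ± 0.18. Pcsk1n, which encodes an inhibitor of prohormone convertase 1, was the 1 neuropeptide-list gene counted as higher (0.80 ± 0.11).

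The counted receptor genes included Npy2r for neuropeptide Y (-0.93 ± 0.12), Calcr for calcitonin (-0.80 ± 0.19) and Trhr for thyrotropin-releasing hormone (-0.60 ± 0.15). Gpr50, an orphan receptor related to the melatonin receptors and a tanycyte marker, lay at 6.80 to 7.48 (median 7.09) and at 6.33 and 5.52 in BPH/2J and 4.86 and 4.74 in BPN/3J, a difference of -1.73 ± 0.19. It was the 1 counted gene of 10 tanycyte markers (median -0.22). Gpr151, an orphan receptor gene best known from the habenula, lay at 5.38 to 8.54 (median 7.31) and at 5.25 and 5.26 in BPH/2J and 5.12 and 4.53 in BPN/3J (difference -2.08 ± 0.50). Fezf1 (-1.17 ± 0.20) and Isl1 (-0.85 ± 0.19), which pattern hypothalamic neurons, were counted among 23 such factors. At 6 weeks Gpr50 lay at 6.97 to 8.53 in BPH/2J and 5.18 to 6.98 in BPN/3J, and Fezf1 at 6.48 to 8.49 and 5.61 to 6.95.

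Immediate early genes, which neurons switch on within minutes of activity, had a median of -0.25 over 22 genes, and 16 were below 0 in both strains. The 4 counted were Nr4a3 (-0.97 ± 0.27), Npas4 (-0.87 ± 0.14), Fos (-0.67 ± 0.14) and Homer1 (-0.61 ± 0.12). Fos lay at 6.98, 7.30, 7.39 and 7.06 on arrays 1 to 4 of BPH/2J and 8.15, 7.50, 7.33 and 7.40 on those of BPN/3J, and at 6.35 and 6.63 in BPH/2J and 6.72 and 7.18 in BPN/3J on arrays 5 and 6. Of the 22 measured genes of the circadian clock 0 were counted, and their median was -0.01.

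Collagen genes were the class most shifted upward. Of 44 measured, 40 were above 0 in both strains and 1 below, and the median was 0.35 (0.45 in BPH/2J and 0.25 in BPN/3J). Most of these differences were under 0.5 in a strain, and only Col6a6 was counted (0.77 ± 0.12). The mean level of the class was 5.94 to 6.36 on arrays 1 to 4, 6.29 to 6.55 on arrays 5 and 6 and 6.34 to 6.69 on the 6-week arrays. With arrays centred on unnamed probe sets the median was 0.16 beside -0.17 for all genes. Between the same numbers at 6 weeks it was 0.06. Small nucleolar RNAs, which guide the modification of ribosomal RNA, had a median of 0.21 over 54 genes (-0.02 in BPH/2J and 0.50 in BPN/3J), and 3 were counted as higher, Snord35a, Scarna8 and Snora73b. Array 6 of BPN/3J had a class mean of 6.56 beside 5.63 for the next array of its group, and without it the median was -0.03. With arrays centred on unnamed probe sets the median was 0.03.

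**Figure D4:**
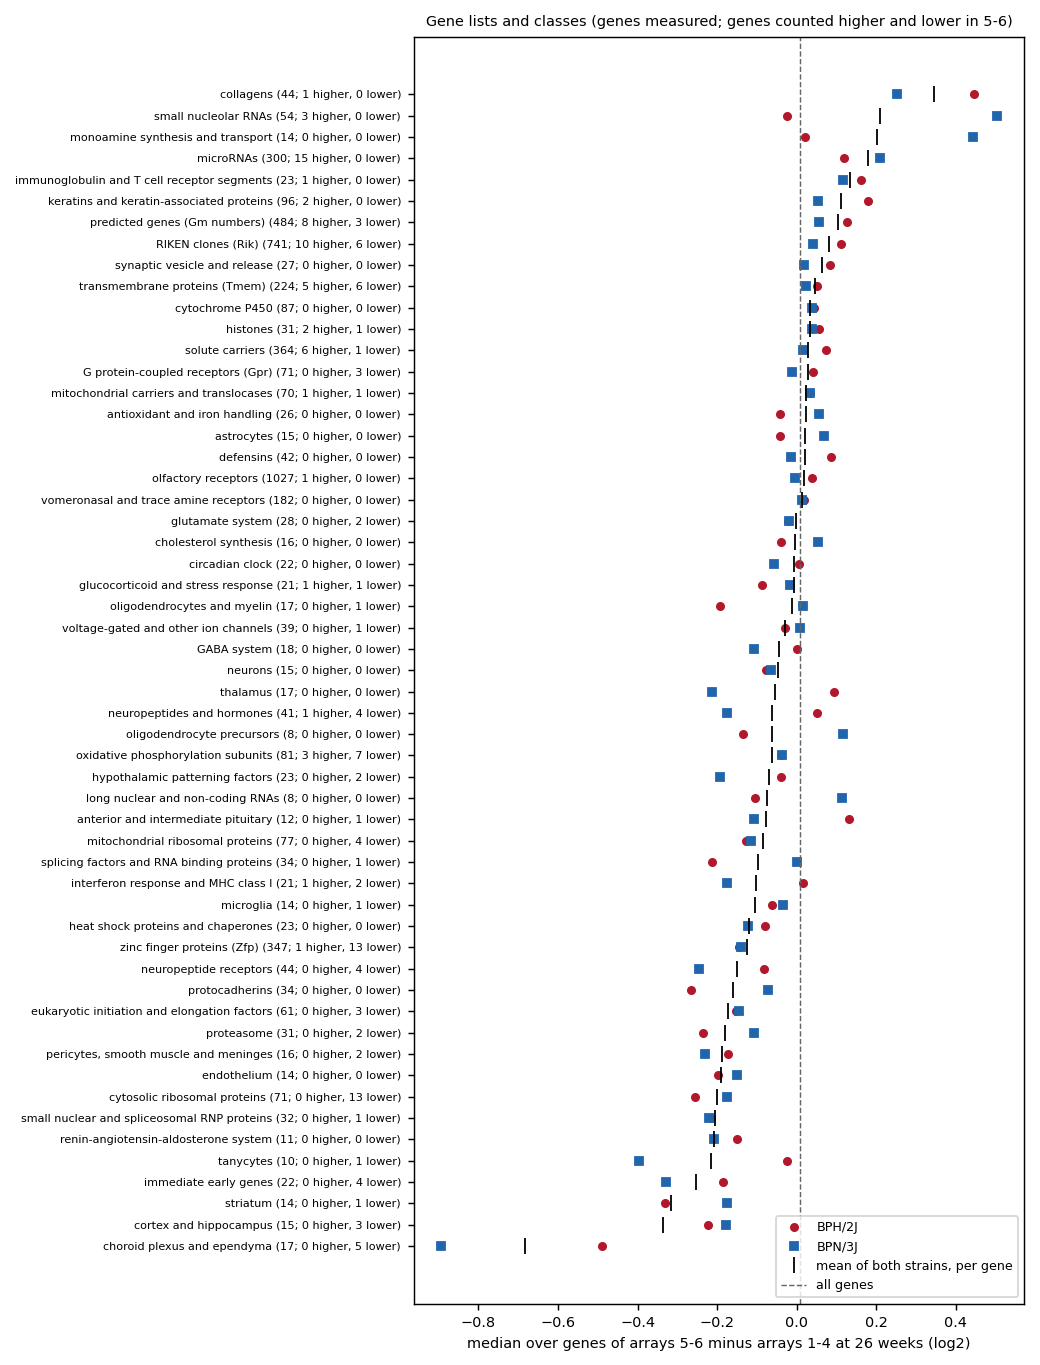
Median log2 difference of arrays 5 and 6 minus arrays 1 to 4 at 26 weeks (horizontal axis) for the 55 lists and classes with at least 5 measured genes, per strain (circles, squares) and for the mean of both strains per gene (bars), with the median of all genes as a dashed line. Medians run from -0.68 for choroid plexus and ependyma to 0.35 for collagens, and 30 lie within 0.1 of 0.

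The annotation of the genes varied with the direction of the difference. Of 18555 protein-coding genes 103 were counted as higher (0.555%) and 396 as lower (2.13%), near the 0.707% and 2.01% of all genes. Of 675 long non-coding RNA genes 16 were counted as higher (2.37%) and 3 as lower (0.444%). Their median level was 5.17 beside 6.96 for protein-coding genes, so gene type and level moved together. Among genes whose mean was above the median of unnamed probe sets, the median difference went from 0.08 in the shortest of 5 bins of gene span to -0.09 in the longest. The median level went over the same bins from 6.56 to 7.97, so span and level moved together. Counted higher genes made up 1.91% of the shortest bin and 0.191% of the longest, while counted lower genes made up 2.45% and 2.39%. A check of promoter base composition was void, because RefSeq promoter entries were matched for 95 of the 141 higher genes, under 80%.

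The 12 arrays of 6-week mice were not used to divide the sets, and most counted genes lay near arrays 5 and 6 there. These positions use the 26-week values that chose the genes, so they are a description. The 6-week mean was nearer to that of arrays 5 and 6 than to that of arrays 1 to 4 for 125 of the 141 higher and 312 of the 400 lower genes in BPH/2J, and for 132 and 383 in BPN/3J. On a scale where 0 is the mean of arrays 1 to 4 and 1 the mean of arrays 5 and 6, the median position of the 6-week mean was 0.81 and 0.82 in BPH/2J and 0.97 and 0.85 in BPN/3J, for higher and lower genes. Over all genes, the 8 arrays numbered 1 to 4 lay above all 16 others of the study by at least 0.5 for 288 genes (1.44%) and below them for 179 (0.898%). The 4 arrays numbered 5 and 6 lay above all 20 others by that margin for 3 genes and below for 3 (0.015% each).

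**Figure D5:**
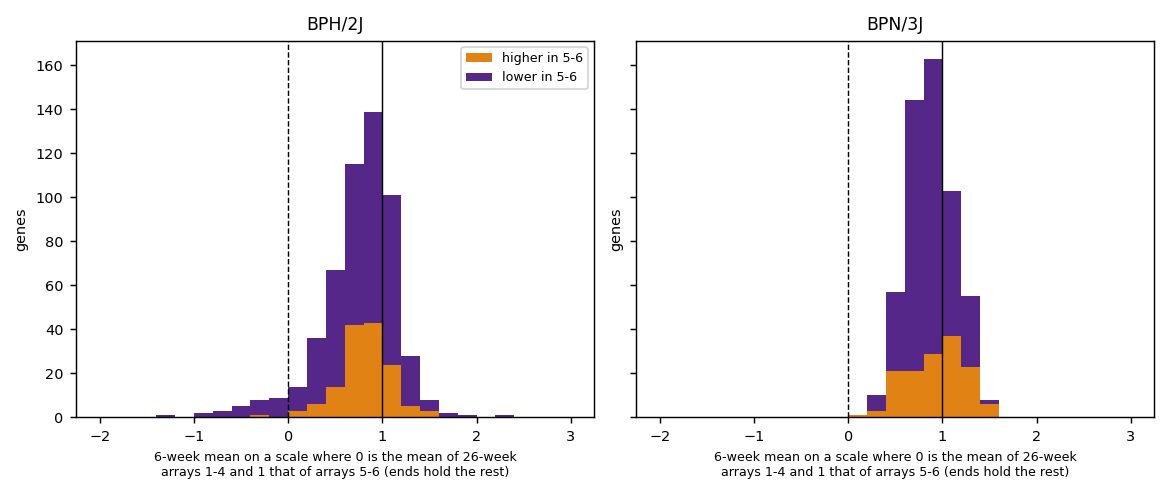
Number of genes (vertical axis) by the position of the 6-week mean of a strain on a scale where 0 is the mean of 26-week arrays 1 to 4 and 1 that of arrays 5 and 6 (horizontal axis, no unit), for the 541 counted genes in BPH/2J and BPN/3J. Most genes lie near 1, with median positions from 0.81 to 0.97.

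The age difference of a gene from each number set is described here. With the same 6-week reference, the age differences of a gene differ by its set difference, so their contrast is built in. With 6-week arrays of the same strain as the reference in each case, so that the values share controls, 26-week arrays 1 to 4 were past 0.5 in both strains for 307 genes higher and 223 lower at 26 weeks. Arrays 5 and 6 were past it for 7 and 24 genes, over fewer arrays. For Rnf7 the age difference was 1.90 in BPH/2J and 1.72 in BPN/3J from arrays 1 to 4, and -0.16 and 0.03 from arrays 5 and 6. For Usp17ld it was -2.98 and -3.36 from arrays 1 to 4, and 0.35 and 0.30 from arrays 5 and 6. For Mt2 it was -0.98 and -1.15, and -0.18 and -0.09. These genes were named for their set difference. Other named genes had the larger age difference from arrays 5 and 6 in BPH/2J. There it was -0.19 from arrays 1 to 4 and -1.69 from arrays 5 and 6 for Pomc, and -0.70 and -1.95 for Gpr50. In BPN/3J it was 1.48 and 0.20 for Pomc, and 1.03 and -1.18 for Gpr50.

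Over all genes, the 26-week values that gave rise to the division are described here by array. With strain means removed, the first principal component held 41.9% of the variance at 26 weeks, with loadings of 0.337 to 0.457 on the 4 arrays numbered 5 and 6. Of the 8 others 7 had negative loadings, and array 3 of BPN/3J was at 0.002. Correlations over genes were 0.993 to 0.996 within arrays 1 to 4 of BPH/2J and 0.986 to 0.992 between the sets of that strain. In BPN/3J arrays 5 and 6 correlated at 0.988 with each other, no higher than the 0.984 to 0.990 between the sets.

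Whether the set difference itself differed between the strains was tested as an interaction in limma over all genes, since the division did not use it. No gene passed an adjusted p of 0.05 (smallest adjusted p 0.531), and 1101 genes had an unadjusted p below 0.05, 5.52% of those tested. This does not show that the strains share every difference. Without array 5 of BPN/3J, which leaves 1 array assumed to vary like the others, 160 genes passed, 14 with a larger value in BPH/2J and 146 with a smaller one. Without array 6 of BPN/3J 2 genes passed, and the count was 0 for each other array left out.

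Between arrays 5 and 6 and arrays 1 to 4 at 6 weeks, limma called 0 genes (smallest adjusted p 0.997), and 802 had an unadjusted p below 0.05, or 4.02%. The 6-week difference was 0.03 ± 0.07 for Rnf7, 0.20 ± 0.12 for Usp17ld and 0.01 ± 0.08 for Rps15.

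Because the number sets are balanced over the strains, the strain difference at 26 weeks could be tested with the set as a term. The division was chosen on the same 12 arrays, so standard errors and p-values with the term may be too small. With the term, limma called 486 of 19937 genes (2.44%), 242 higher and 244 lower in BPH/2J. Without the term it called 248 (1.24%), all of them among the 486, and 238 genes (1.19%) were gained. With the replicate number as a block in place of the set, 384 were called, 353 of them shared. Among the 541 counted genes 20 were called with the term (3.70%) and 2 without it, Folh1 and Cep112. Choosing genes for a set difference favours calls with the term, so nothing is read from these counts. Slc15a2, Rpl26, Mpeg1, Eri2, Clec5a and Mt2, given below, were among these 20, so their p-values with the term carry the same limit.

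Among the genes gained, Slc15a2, a peptide transporter, was higher in BPH/2J by 0.77 ± 0.09 (adjusted p 0.000114 with the term and 0.162 without). It lay at 8.49, 8.58, 8.63 and 8.64 on arrays 1 to 4 and 8.05 and 7.53 on arrays 5 and 6 of BPH/2J, and at 7.69, 7.90, 7.77 and 8.03 and 6.96 and 6.96 in BPN/3J. The strains did not overlap within either set, while arrays 5 and 6 of BPH/2J lay on either side of the range of arrays 1 to 4 of BPN/3J. Also higher were the ribosomal gene Rpl26 (0.78 ± 0.12, adjusted p 0.00132), the macrophage gene Mpeg1 (0.59 ± 0.07, adjusted p 0.000285), the exonuclease gene Eri2 (0.55 ± 0.06, adjusted p 0.000135) and Timm17a of the mitochondrial import machinery (0.42 ± 0.06, adjusted p 0.000872).

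The myeloid receptor gene Clec5a was lower in BPH/2J (-0.73 ± 0.09, adjusted p 0.000298). The 4 others named in that direction were AV039307 (-0.55 ± 0.08), the secreted glycoprotein gene Olfml3 (-0.60 ± 0.09), the potassium channel-interacting gene Kcnip3 (-0.41 ± 0.06) and Tmem100 (-0.51 ± 0.08). These 4 lost their calls when arrays were centred on unnamed probe sets, with differences of -0.41, -0.46, -0.27 and -0.38 and adjusted p-values of 0.0587, 0.0709, 0.216 and 0.132. Mt2 was higher in BPH/2J by 0.38 ± 0.07 with the set term (adjusted p 0.00993, against 0.756 without), as its values above show within each set.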

How the data were processed

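Values were log2 expression values that the authors deposited for 34760 probe sets on 24 arrays. They were made with RMA, which corrects background, equalises the arrays' distributions and summarises probes, per the submitters' processing notes. No source used here gives versions or a genome build. Values ran from 1.54 to 14.3 with 0 missing, and array medians from 5.89 to 6.09. The number of arrays limits the precision.

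Of the probe sets 21640 had 1 gene symbol in the platform annotation, 1321 several and 11799 none here. Each gene was represented by the brightest on average of its single-symbol probe sets over the 24 arrays, giving 19937 genes. The members and gene lists were chosen with earlier results of these data known. Lists matched 656 of 731 entries. Sequences came from RefSeq tables of GRCm38.p6.

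Differences, SEs and tests came from limma 3.58.1 in R 4.3.3 (lmFit, eBayes), with Benjamini-Hochberg adjustment over all genes and a threshold of 0.05, on the 12 arrays of one age. The code was tested on simulated data. The named genes were the 12 counted genes per direction with the largest smaller-of-both-strains difference (leaving out Gm, LOC and Rik symbols), up to 3 counted genes per list and direction, and up to 5 per direction by smallest p for each test, for strain among genes called only with the set term. Genes described as chosen after their values were seen, and Ttr, Foxj1, Snap25, Gfap, Hcrt, Avp, Th, Hdc, Folh1 and Cep112, stand outside this rule.

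Same-numbered 26-week arrays of the strains deviated together (correlations 0.13 to 0.44 for all 6 pairs), so the fit with the replicate number as a block is given beside the main one. These correlations hold the set division: arrays of different numbers in one set correlated up to 0.61 (6 of BPH/2J with 5 of BPN/3J), and with set means removed same-numbered pairs were at -0.20 to 0.34. The labels give no pairing. Alternatives covered scaling, probe set choice, dim genes, the size threshold, set term, replicate block, arrays in the fit, array weights and each array left out.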

Additional observations from a re-analysis of the deposited data

Results flagged for a closer look

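In 340 groups of 6 arrays at 26 weeks (genes and list means), 10 had an end array set apart by more than the limit for that group size. This was 2.94%, under the about 1 in 20 that chance alone flags. Each group joins both number sets, and many of the genes were named for their set difference, so that rate need not hold here. The 10 are listed as a description. Array 6 of BPN/3J accounted for 5 of them. It was highest for n-R5s136 (12.57, the next 9.66), for the mean of small nucleolar RNAs (6.56, the next 5.63) and for the mean of microRNAs (4.89, the next 4.55). It was lowest for the means of microglia markers (6.98, the next 7.19) and of oxidative phosphorylation subunits (9.72, the next 9.85). Array 3 of BPH/2J was highest for the means of pericyte, smooth muscle and meninges markers (7.82, the next 7.13), striatal markers (9.12, the next 8.41) and immediate early genes (7.35, the next 7.02). Array 4 of BPN/3J was highest for cortex and hippocampus markers (8.11, the next 7.45). Array 5 of BPN/3J was highest for mitochondrial carriers and translocases (8.14, the next 8.05).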

How the results depend on the processing

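The count of 541 genes that separate the number sets was 1082 (19 higher, 1063 lower) with arrays centred on unnamed probe sets, 1997 with a minimum difference of 0.3 and 24 with a minimum of 1. It ran from 476 to 595 under the other settings that kept all arrays and from 498 to 660 with each array left out. The interaction count was 0 under every setting that kept all arrays and ran from 0 to 160 with each array left out. The count for the same numbers at 6 weeks was 0 under all alternatives run. The strain count of 486 with the set term was 248 without the term, 289 from arrays 1 to 4 only, 29 from arrays 5 and 6 only and 881 with all 24 arrays in the fit. It was 334 (260 higher, 74 lower) with arrays centred on unnamed probe sets, and 347 to 556 with each array left out. The replicate block gave 384, of which 353 were shared with the 486, so other calls changed. The 10 strain genes named kept their calls with the block. That all 10 had no call without the set term follows from the rule that chose them. All 10 lost their calls with arrays 5 and 6 only. No gene named by the rule changed sign under these settings. Class medians did. Small nucleolar RNAs went from 0.21 to -0.03 without array 6 of BPN/3J, and monoamine genes from 0.20 to -0.05 without array 5. With arrays centred on unnamed probe sets, microRNAs went from 0.18 to -0.00 and immunoglobulin and T cell receptor segments from 0.13 to -0.05. Keratins went from 0.11 to -0.07 and predicted Gm genes from 0.10 to -0.08 with that centring. Other medians near 0 also changed sign. Centring on unnamed probe sets moves all genes of an array by the same constant. Every median therefore moved alike, that of all genes from 0.01 to -0.17. Causes of the shifts with an array left out were not tested. Set differences rest on 2 arrays per strain in the smaller set, and dim genes, microRNAs among them, have little signal over background.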

Other observations

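Th, which encodes tyrosine hydroxylase of dopamine synthesis, and Hdc, which makes histamine, went opposite ways without being counted. Th lay at 7.39 to 8.96 (median 7.77) on arrays 1 to 4 and at 7.89 and 9.25 in BPH/2J and 10.86 and 8.74 in BPN/3J on arrays 5 and 6, and Hdc at 7.05 to 7.95 (median 7.64) and 6.00 and 6.3 in BPH/2J and 7.42 and 6.82 in BPN/3J. By chromosome, counted lower genes made up 4.60% of the X-linked genes measured (34 genes), against 1.05% to 2.65% on the numbered chromosomes. Probe sets with no gene name fell into 2 groups. The 6573 numbered below the first named one had a median set difference of -0.01 in BPH/2J and 0.26 in BPN/3J, where the array median reached 5.42 on an array numbered 5 or 6. The 5226 others had medians of 0.12 and 0.08.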
